A study of Aspergillus fumigatus with 12 samples.

Results

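This is an account of the few weakly transcribed genes of a fungal mycelium that were present in every basic-medium culture but were below 1 FPKM when a dye, a plant phenolic acid or both were added. FPKM counts sequenced fragments scaled to the gene's length and the library's total, to make levels roughly comparable between genes and between libraries. No further scaling between libraries was applied, other than in alternative settings. A gene was taken when its mean over the 12 libraries was under 5 FPKM, each of the 3 basic-medium libraries held at least 2 FPKM, and all 3 libraries of 1 or more treated groups were under 1 FPKM. A group that met the last condition for a gene is called off for it. Of 10276 genes, 987 met the first pair of conditions, and 20 of these (2.03%) were off in at least 1 treated group. The rule used the values of every library, so the levels against basic medium that follow are descriptions and carry no test.

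The 4 groups of 3 libraries were P2R+SA (basic medium to which the azo dye Ponceau 2R and sinapic acid were added), P2R (basic medium with the dye), SA (basic medium with sinapic acid) and CK (basic medium alone). All were mycelium of strain X-13, grown without any other labelled treatment. The fungus is Trametes hirsuta in the series title and Aspergillus fumigatus in the organism field of the samples. Nothing in the labels tells if the 3 libraries of a group came from different cultures, and p-values therefore cover a spread between libraries that may be partly technical. According to the design text every group was sampled at 48 h, but column headers of the single-library files carry 48 in P2R+SA and SA and 36 in P2R and CK, and those of P2R+SA also carry an unexplained 4. Should 36 and 48 be hours of culture, then sinapic acid always goes with the longer time, and their effects cannot be told apart wherever P2R+SA or SA is set against P2R or CK.

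White-rot fungi such as Trametes secrete laccases and peroxidases, oxidative enzymes that attack lignin and can also decolorize azo dyes. Sinapic acid is a phenolic acid of plants, related to the building blocks of lignin, and small phenolics of this kind can serve as mediators that carry electrons between laccase and a dye. The comparison addresses how gene expression changes when sinapic acid is given with the dye. The deposited IDs carry no product or position, and 0 of them matched the 10086 genes of an Aspergillus fumigatus table, so the function of the 20 genes is not known here and they are given by ID. Whether the RNA shows the markers of mycelium could not be checked for the same reason.

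The libraries held 35919382 to 39408714 fragments, so 1 FPKM of a gene with 1000 bp of coding sequence stood for 35.9 to 39.4 fragments. Off therefore means low, not silent: none of the 20 genes was at 0 in any library. In the 72 gene and library pairs of off groups, fragments per gene ran from 1 to 76, with a median of 20. In CK they ran from 21 to 417, with a median of 133.5. Spearman correlations between libraries of a group over all genes were 0.982 to 0.996 in P2R+SA, 0.993 to 0.996 in P2R, 0.974 to 0.983 in SA and 0.996 to 0.997 in CK. P2R+SA replicate 1 stood apart from its group, at 0.983 and 0.982 to the other two libraries, which were at 0.996 to each other. SA replicates were also less alike than those of CK or P2R. Some SA libraries were closer to a P2R+SA library than to a library of their own group: SA replicate 1 was at 0.981 to P2R+SA replicate 3, against 0.974 and 0.980 to SA replicates 2 and 3. SA replicate 2 was at 0.981 to P2R+SA replicate 1 and at 0.974 and 0.983 to SA replicates 1 and 3. These values touch every SA and P2R+SA pattern given here, and their part in the patterns was not tested.

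P2R+SA was off for 14 of the 20 genes, P2R for 3 and SA for 7, which is 1.42%, 0.304% and 0.709% of the 987 low genes present in CK. This order depended on single libraries, but a left-out library relaxes the rule for its own group to 2 libraries and admits genes outside the 20. Without SA replicate 2, 24 genes met the rule, with P2R+SA off for 14 and SA for 18. Without P2R replicate 3, 29 genes met it, with P2R+SA and P2R each off for 14. Without P2R+SA replicate 1, 49 genes met it, with P2R+SA off for 45, P2R for 3 and SA for 7. Sorted by pattern, 11 genes were off in P2R+SA alone, namely A07847, A06305, A09525, A10552, A03119, A05007, A10994, A08803, A09890, A00603 and A09897. SA alone was off for 5 genes, A04621, A09097, A03355, A06464 and A09910. P2R alone was off for 1 gene, A07821. A10403 was off in P2R+SA and P2R, A02964 in P2R+SA and SA, and A08650 in all 3 treated groups. No gene was off in both P2R and SA while staying above the limit in P2R+SA.

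**Figure D1:**
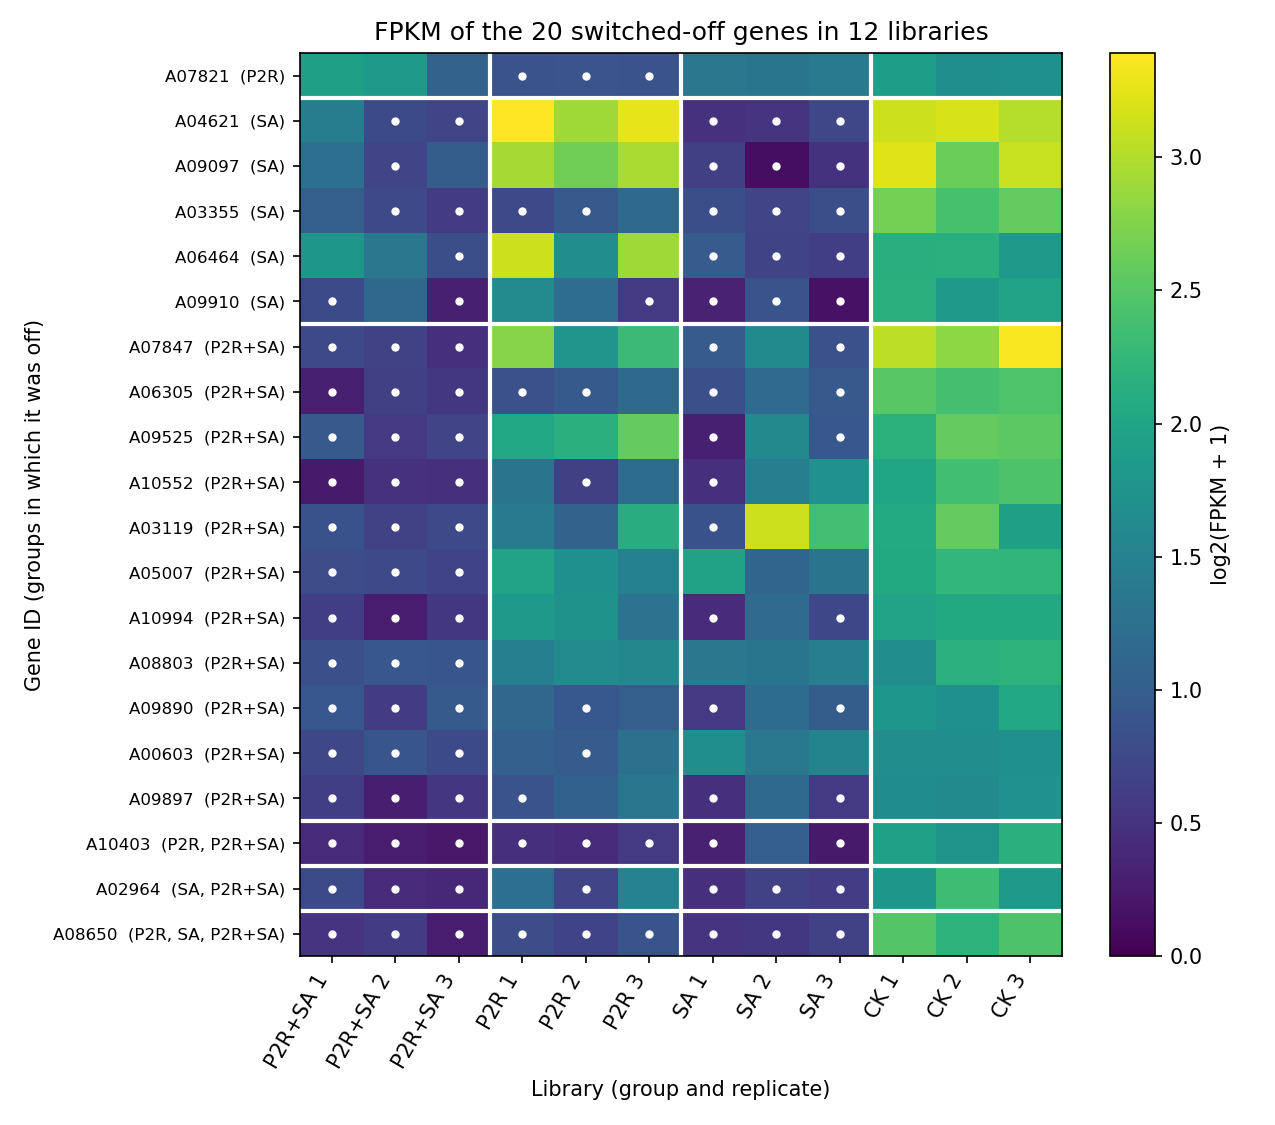
Levels of the 20 genes (rows, grouped by the treated groups in which they were off) in the 12 libraries (columns), as log2(FPKM + 1), with a white dot where a library was under 1 FPKM. The CK columns hold no dot, the A08650 row has one in all 9 treated libraries, and SA replicate 2 lacks dots that the other SA libraries have.

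Most of the 20 genes were low in CK as well. Their CK means ran from 2.16 to 7.64 FPKM with a median of 3.33 FPKM, against a median of 3.66 FPKM in the 967 other low genes. Coding lengths, recovered from the values, ran from 225 to 2808 bp with a median of 1017 bp, against 1470 bp in the other low genes. The median level left relative to the CK mean was 15.2% in P2R+SA, 52.4% in P2R and 23.2% in SA for the 20 genes. For the other low genes it was 81.5%, 76.7% and 89.1%. These shares follow from the rule for the off groups.

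All 3 P2R+SA libraries lay below all CK libraries in 19 of the 20 genes, all 3 P2R libraries in 15 and all 3 SA libraries in 18. Among the other low genes the same was true of 32.6% in P2R+SA, 49.4% in P2R and 28.0% in SA, and among all 9240 genes tested of 32.1%, 36.3% and 24.2%. The choice of genes used these comparisons, so nothing is read from the counts.

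The gene that was off in every treated group, A08650 (1164 bp), had 0.421, 0.512 and 0.20 FPKM in P2R+SA, 0.745, 0.604 and 0.847 FPKM in P2R and 0.430, 0.464 and 0.596 FPKM in SA, against 4.59, 3.57 and 4.43 FPKM in CK. All 9 treated libraries lay below 1 FPKM and far below the lowest CK library. Its mean was 0.378 ± 0.161 FPKM in P2R+SA, 0.732 ± 0.122 in P2R, 0.497 ± 0.0875 in SA and 4.19 ± 0.547 in CK (SD, n = 3), which is 11.1-fold, 5.73-fold and 8.44-fold lower than CK in the treated groups.

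A10403 (2808 bp, the longest of the 20) had 0.331, 0.193 and 0.175 FPKM in P2R+SA, 0.383, 0.337 and 0.488 FPKM in P2R and 0.238, 1.01 and 0.181 FPKM in SA, against 2.83, 2.37 and 3.44 FPKM in CK. Only SA replicate 2, just above 1 FPKM, kept it from being off in all treated groups. It is also 1 of the 2 genes that stayed members when the limit for off was lowered to 0.5 FPKM; the other was A10552, off in P2R+SA with 0.190, 0.398 and 0.379 FPKM.

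Another pair of genes came close to the same pattern. A03355, off in SA, had means of 0.746 ± 0.268 FPKM in P2R+SA, 0.950 ± 0.275 in P2R, 0.720 ± 0.0685 in SA and 4.90 ± 0.554 in CK (SD, n = 3). A06305, off in P2R+SA, had 0.424 ± 0.171, 0.993 ± 0.231 and 0.992 ± 0.249 FPKM in P2R+SA, P2R and SA and 4.47 ± 0.211 FPKM in CK (SD, n = 3). In each, single libraries of the remaining groups reached 1.04 to 1.26 FPKM and so missed the limit.

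The genes off in SA held the largest losses. A04621 (1314 bp) had the highest CK mean of the 20 genes. It read 1.69, 0.701 and 0.629 FPKM in P2R+SA, 9.49, 6.48 and 8.61 FPKM in P2R and 0.403, 0.432 and 0.650 FPKM in SA, against 7.76, 8.12 and 7.05 FPKM in CK. P2R and CK libraries overlapped, with means of 8.19 ± 1.55 FPKM in P2R and 7.64 ± 0.543 FPKM in CK (SD, n = 3), and the SA mean was 15.4-fold lower than CK. P2R+SA replicate 1 was the only library of its group above 1 FPKM.

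In A09097 (591 bp) too, the dye alone left levels that overlapped CK. It had 1.35, 0.642 and 1.0 FPKM in P2R+SA, 6.67, 5.31 and 6.76 FPKM in P2R and 0.565, 0.0914 and 0.406 FPKM in SA, against 8.36, 5.18 and 7.64 FPKM in CK. Every P2R and CK library lay above every library with sinapic acid. The lowest SA value rests on 2 fragments, and the SA mean was 19.9-fold lower than the CK mean, the largest ratio of the 20 genes in any treated group.

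A06464 (780 bp) had its highest levels in the dye cultures. Its libraries held 2.48, 1.53 and 0.761 FPKM in P2R+SA, 7.78, 2.18 and 6.49 FPKM in P2R and 0.964, 0.624 and 0.547 FPKM in SA, against 3.35, 3.44 and 2.54 FPKM in CK. Replicates 1 and 3 of P2R were above every CK library and replicate 2 was below them all, so the groups overlapped. When each member is taken by the highest value in its off group, its 0.964 FPKM in SA replicate 1 lay closest below the limit of 1 FPKM, followed by 0.937 FPKM of A09890 in P2R+SA replicate 3.

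The lowest levels among the genes off in SA rest on few fragments. A09910, of 225 bp, was the shortest of the 20, and its values in P2R+SA and SA rest on 1 to 10 fragments per library. It had 0.689, 1.20 and 0.230 FPKM in P2R+SA, 2.10, 1.32 and 0.487 FPKM in P2R and 0.247, 0.841 and 0.119 FPKM in SA, against 3.44, 2.55 and 2.93 FPKM in CK. A02964 (597 bp), off in P2R+SA as well, had 0.692, 0.318 and 0.303 FPKM in P2R+SA, 1.36, 0.634 and 1.83 FPKM in P2R and 0.373, 0.588 and 0.536 FPKM in SA, against 2.46, 4.08 and 2.55 FPKM in CK.

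**Figure D2:**
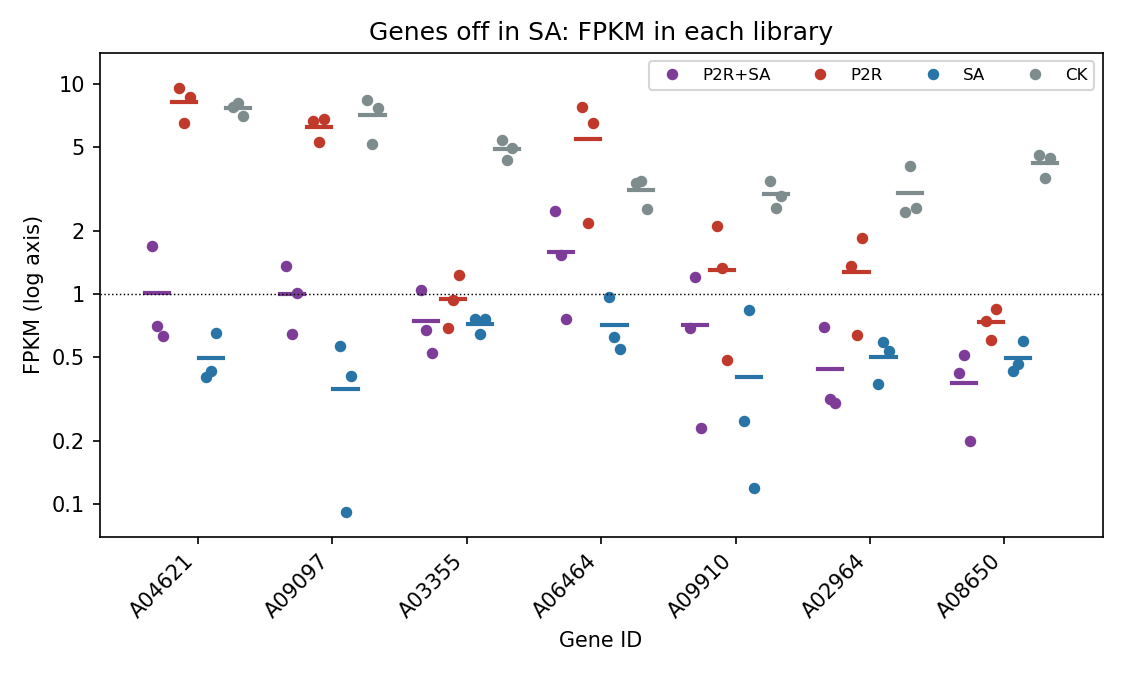
FPKM (log axis) of the 7 genes off in SA, with 1 dot per library and a bar at the mean of the 3 libraries of P2R+SA, P2R, SA and CK; the dotted line marks 1 FPKM. For A04621 and A09097 the P2R dots overlap the CK dots and lie above all P2R+SA and SA dots.

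Whether sinapic acid also lowered the 7 SA-off genes in cultures that held the dye can be tested, since P2R+SA and P2R libraries did not enter the choice of a gene as off in SA, other than through the limit on the mean. The test was limma on log2(FPKM + 1) over 9240 genes, two-sided, with Benjamini-Hochberg adjustment, and fold changes on this scale understate those of low genes. All 7 genes had a negative difference, P2R+SA minus P2R, and 3 fell past the threshold of adjusted p = 0.05. Over all genes tested 11.3% were called lower and 8.52% higher, and over the other low genes 7.55% and 7.14%. The median difference was -0.64 log2 units for the 7 genes, 0.03 for the other low genes and -0.03 for all genes tested.

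A04621 fell to 1.01 ± 0.593 FPKM in P2R+SA, against 8.19 ± 1.55 FPKM in P2R (SD, n = 3), a log2 difference of -2.22 (SE 0.196, limma adjusted p = 5.59e-05). A09097 fell to 1.0 ± 0.356 FPKM in P2R+SA, against 6.25 ± 0.814 FPKM in P2R (SD, n = 3; log2 difference -1.87, SE 0.201, limma adjusted p = 0.000161). Both calls held under all 23 alternative settings, with limma adjusted p up to 0.000986 and 0.00146. For both genes no P2R+SA library reached a P2R library.

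A06464 also passed, at 1.59 ± 0.862 FPKM in P2R+SA against 5.49 ± 2.93 FPKM in P2R (SD, n = 3; log2 difference -1.25, SE 0.34, limma adjusted p = 0.0235), but its libraries overlapped. The call was lost without P2R replicate 1 (limma adjusted p = 0.0995) or 3 (0.0886), without P2R+SA replicate 2 (0.0605) or 3 (0.0971) and with the 6 compared libraries alone (0.071), in a range of 0.00011 to 0.0995 over alternatives. A02964 had a log2 difference of -0.64 (SE 0.214, limma adjusted p = 0.0566). It passed in 8 of the 22 alternatives that tested it, among them without P2R replicate 2 (0.0183) or P2R+SA replicate 1 (0.0347), in a range of 0.00155 to 0.199. A03355, A09910 and A08650 did not pass, with log2 differences of -0.16, -0.41 and -0.33 (SE 0.15, 0.286 and 0.134, limma adjusted p = 0.481, 0.34 and 0.103). Their P2R means were 0.950, 1.30 and 0.732 FPKM, and that of A02964 was 1.28 FPKM. The part of such low levels in these outcomes was not tested. Groups did not overlap in 3 of the 7 genes, A04621, A09097 and A08650, against 20.5% of all genes tested and 13.4% of the other low genes with P2R+SA below P2R. A08650 was under 1 FPKM in every P2R+SA and P2R library and passed the filter of at least 1 FPKM in 3 libraries only through CK. Its separation lies wholly below the limit for off, and nothing is read from it. The P2R+SA headers carry 48 and the P2R headers 36, so the caution about time applies here.

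The genes off in P2R were few. A07821 (1653 bp), the only gene off in P2R alone, had 2.80, 2.52 and 1.11 FPKM in P2R+SA, 0.826, 0.851 and 0.828 FPKM in P2R and 1.53, 1.5 and 1.61 FPKM in SA, against 2.71, 2.22 and 2.24 FPKM in CK. Its P2R libraries lay below every other library, with an SD of 0.0136 FPKM (n = 3). It averaged 2.14 ± 0.906 FPKM in P2R+SA and 2.39 ± 0.280 FPKM in CK (SD, n = 3), and these groups overlapped.

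For the 3 P2R-off genes, the effect of the dye in cultures with sinapic acid (P2R+SA minus SA) uses libraries that this choice did not use, other than through the mean. None of the 3 was called in limma, and 0 had an unadjusted p under 0.05, where 3.16% of all genes tested were called lower and 2.88% higher, and 2.69% and 0.827% of the other low genes. None was called under any of the alternatives that tested it, limma-voom on recovered fragments included. The log2 differences were 0.26 for A07821 (SE 0.189), -0.22 for A10403 (SE 0.192) and -0.12 for A08650 (SE 0.134), with limma adjusted p of 0.436, 0.519 and 0.604. A10403 and A08650 had SA means of 0.476 and 0.497 FPKM. Both passed the filter of at least 1 FPKM in 3 libraries only through CK. With the 6 compared libraries alone they could not be tested, so the 0 of 3 says little beyond A07821.

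Among the 11 genes off in P2R+SA alone, A07847 (1149 bp) had the highest CK mean and the largest fall. It had 0.674, 0.590 and 0.382 FPKM in P2R+SA, 5.85, 2.40 and 3.96 FPKM in P2R and 0.969, 2.09 and 0.790 FPKM in SA, against 7.32, 6.04 and 9.21 FPKM in CK. From low to high the groups stood in the order P2R+SA, SA, P2R, CK with no overlap between neighbouring groups. The P2R+SA mean was 13.7-fold lower than the CK mean.

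A03119 (414 bp) was the least even of the genes off in P2R+SA. It had 0.811, 0.589 and 0.686 FPKM in P2R+SA, 1.65, 1.11 and 3.31 FPKM in P2R and 0.807, 7.77 and 4.19 FPKM in SA, against 3.22, 4.95 and 2.82 FPKM in CK. Its SA libraries ran from below 1 FPKM to above every other library of the gene.

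A05007 (561 bp) and A08803 (2103 bp) kept more than 1 FPKM in every library with a single compound. A05007 averaged 0.670 ± 0.0692 FPKM in P2R+SA, 2.34 ± 0.575 in P2R, 1.84 ± 0.916 in SA and 3.55 ± 0.314 in CK (SD, n = 3). A08803 averaged 0.849 ± 0.0652 FPKM in P2R+SA, 1.95 ± 0.181 in P2R, 1.59 ± 0.132 in SA and 3.08 ± 0.788 in CK (SD, n = 3). In both genes all P2R and SA libraries lay between the P2R+SA and the CK libraries.

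A10552 (681 bp), A09890 (1047 bp) and A09897 (987 bp) were under 1 FPKM in some but not all libraries of each single compound. A10552 averaged 0.322 ± 0.115 FPKM in P2R+SA, 1.10 ± 0.482 in P2R, 1.46 ± 0.984 in SA and 3.86 ± 0.746 in CK (SD, n = 3). A09890 averaged 0.781 ± 0.229 FPKM in P2R+SA, 1.04 ± 0.138 in P2R, 0.921 ± 0.411 in SA and 2.57 ± 0.425 in CK (SD, n = 3), and A09897 had 0.405 ± 0.169, 1.14 ± 0.356 and 0.695 ± 0.469 FPKM in P2R+SA, P2R and SA and 2.16 ± 0.120 FPKM in CK (SD, n = 3). In these 3 genes every treated library lay below every CK library.

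**Figure D3:**
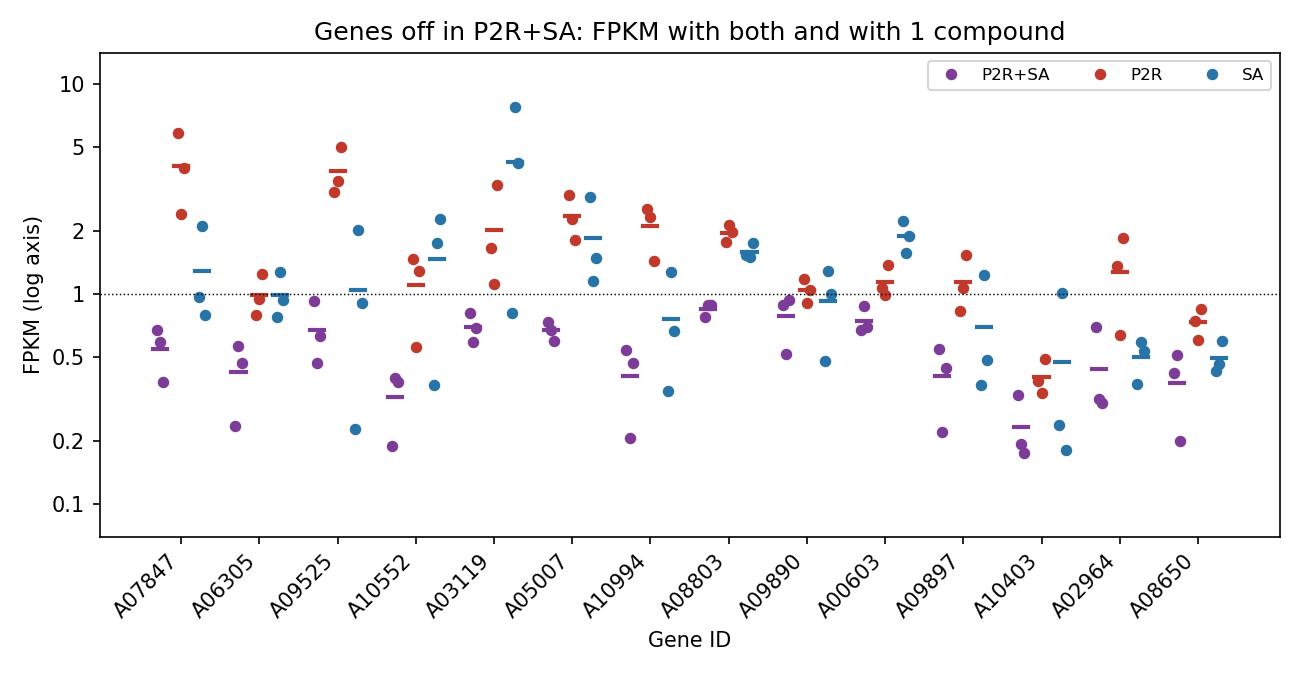
FPKM (log axis) of the 14 genes off in P2R+SA, with 1 dot per library and a bar at the mean of the 3 libraries of P2R+SA, P2R and SA; the dotted line marks 1 FPKM. P2R dots of A07847, A09525 and A10994 lie above all SA dots, as do those of A08803, A02964 and A08650 by narrower margins. A00603 shows the opposite order.

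The single compounds could be set against each other in the 14 genes off in P2R+SA, because that choice used neither P2R nor SA libraries, other than through the mean. P2R headers carry 36 and SA headers 48, so the caution about time applies to these differences as well. In P2R minus SA, 3 genes were called higher and 1 lower in limma, against 12.3% and 13.0% of all genes tested and 7.55% and 11.5% of the other low genes. The median difference was 0.20 log2 units for the 14 genes, -0.14 for the other low genes and -0.03 for all genes tested. Groups did not overlap in 6 genes with P2R higher and in 1 with P2R lower, against 19.7% and 22.6% of all genes tested and 12% and 26.4% of the other low genes. Of the 6, A02964 and A08650 could not be tested with the compared libraries alone, as they passed the filter only with the help of CK.

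A09525 (978 bp) had the largest difference. It had 0.924, 0.471 and 0.634 FPKM in P2R+SA, 3.06, 3.43 and 4.98 FPKM in P2R and 0.228, 2.02 and 0.900 FPKM in SA, against 3.52, 4.98 and 4.83 FPKM in CK. P2R libraries overlapped CK and lay above every SA library (log2 difference of P2R minus SA 1.31, SE 0.279, limma adjusted p = 0.00597).

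A07847 averaged 4.07 ± 1.73 FPKM in P2R and 1.28 ± 0.706 FPKM in SA (SD, n = 3; log2 difference 1.14, SE 0.264, limma adjusted p = 0.0094). A10994 (1047 bp) averaged 2.10 ± 0.581 FPKM in P2R and 0.758 ± 0.467 FPKM in SA (SD, n = 3; log2 difference 0.83, SE 0.199, limma adjusted p = 0.0107). The calls of A09525, A07847 and A10994 held in all 23 alternatives, with limma adjusted p up to 0.0344, 0.0424 and 0.0486.

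A00603 (2349 bp) went the other way, with 1.06, 0.99 and 1.38 FPKM in P2R and 2.23, 1.56 and 1.89 FPKM in SA (log2 difference -0.43, SE 0.127, limma adjusted p = 0.0287). It lost its call in 7 of 23 alternatives, among them without P2R replicate 1 (limma adjusted p = 0.0883) or 2 (0.103), without SA replicate 1 (0.0908) or 3 (0.0589) and with the 6 compared libraries alone (0.0852), in a range of 0.0116 to 0.103. The other 10 of the 14 did not pass. Of these, A03119 passed as lower in P2R without SA replicate 1 (log2 difference -1.22, limma adjusted p = 0.0163, range 0.0148 to 0.904). A05007 passed as higher in P2R without the same library (log2 difference 0.52, limma adjusted p = 0.0407, range 0.0317 to 0.765). A09897 passed as higher in P2R without SA replicate 2 (log2 difference 0.57, limma adjusted p = 0.0306, range 0.0306 to 0.46). A02964 passed here as higher in P2R without P2R replicate 2 (limma adjusted p = 0.0238) and with quantile normalization (0.0259), in a range of 0.0238 to 0.236.

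Single libraries decided several of these patterns. SA replicate 2 was the only SA library at 1 FPKM or more in 7 genes, A07847, A06305, A09525, A10994, A09890, A09897 and A10403, where it held 1.01 to 2.09 FPKM. Without it the rule asks for 2 SA libraries but still for 3 P2R+SA libraries, and 24 genes met it, the 20 among them. Of the 24, 18 were off in SA and 14 in P2R+SA, and 7 had the pattern of P2R+SA and SA together. Of the 20 with all libraries, these counts were 7, 14 and 1. The 18 thus include genes outside the 20. Of the 20, 13 kept their pattern. Over the 20 genes, 16, 7 and 14 were under 1 FPKM in SA replicates 1, 2 and 3, and the summed level of the 20 was 16.5, 29.1 and 21.7 FPKM in these libraries.

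P2R+SA replicate 1 acted on how many genes met the rule. It was the highest library of its group in 13 of the 20 genes, and the summed level was 18.5, 14.3 and 11.5 FPKM in replicates 1, 2 and 3. Without it, 49 genes met the rule instead of 20, and 45 instead of 14 were off in P2R+SA. A left-out library also relaxes the rule, which then asks for 2 libraries instead of 3. Without any other library of P2R+SA, P2R, SA or CK, 20 to 29 genes met it. The 29 were reached without P2R replicate 3, where 14 instead of 3 were off in P2R, as many as in P2R+SA. The genes just outside the limit, A02631 and A00273, were held there by the same library. In P2R+SA, A02631 had 1.01, 0.375 and 0.258 FPKM and A00273 had 1.02, 0.385 and 0.591 FPKM, against 7.46, 7.11 and 6.31 FPKM and 2.54, 2.45 and 2.61 FPKM in CK. What sets these libraries apart was not tested.

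**Figure D4:**
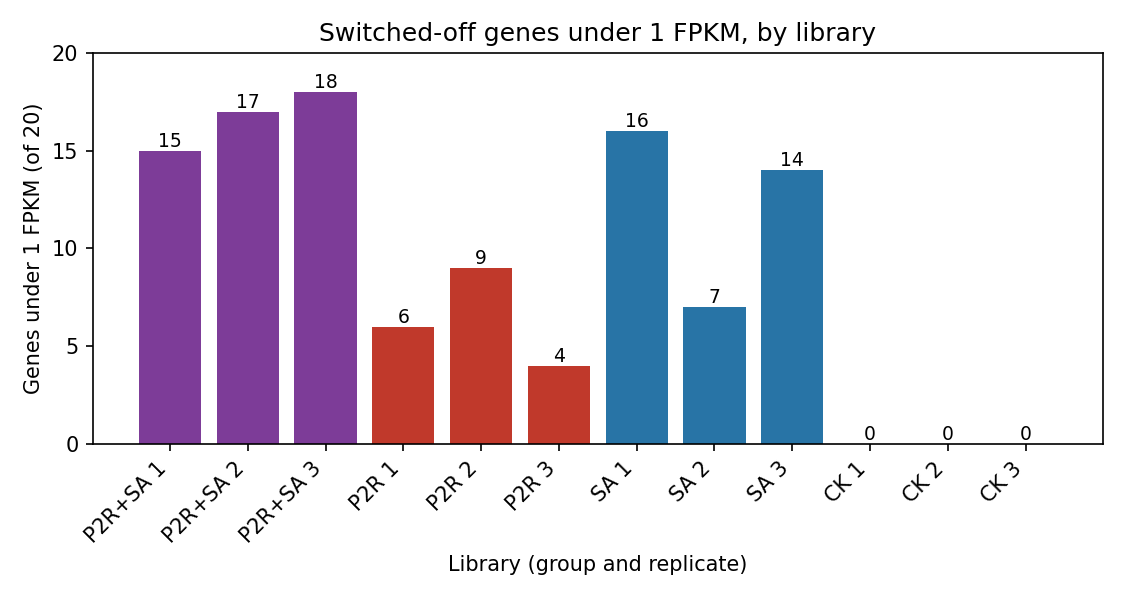
Number of the 20 genes under 1 FPKM in each library, by group and replicate. The P2R+SA libraries hold 15, 17 and 18 such genes, the P2R libraries 6, 9 and 4, the SA libraries 16, 7 and 14, and the CK libraries 0, as the rule requires.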

How the data were processed

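Expression was measured by mRNA sequencing of mycelium in 12 libraries, grouped by sample title. The authors deposited FPKM values in a series-wide table, used here, and in single-library files that differ from it by at most 4.89e-06 FPKM. Per the submitters' processing notes, fastp, HISAT2, HTSeq and R 3.2.0 were used, with no role given; for build, annotation and strand setting, nothing is given in the sources used here. Whole fragments were recovered from the FPKM ratios between libraries for 99.96% of 10276 genes (tolerance 1e-06). Lengths were multiples of 3 for 100.0% of the 9850 genes with over 50 fragments. The library totals were fitted to make lengths multiples of 3, so this share is not an independent check. Fragments served for depth, length and a limma-voom alternative.

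A linear model per gene (limma 3.58.1, R 4.3.3) was fitted on log2(FPKM + 1) for the 9240 genes with at least 1 FPKM in 3 libraries, over all 12 libraries, with an intensity trend, 8 residual degrees of freedom and no block. All members pass this filter through CK, and some, A08650 and A10403 among them, pass it only through CK. Fits were also run on data simulated around each gene's mean over the 12 libraries, which is not the level of an off group. The outcome is not given here and supports none of the calls. Members, lists and tests were chosen with earlier results of these data known. Named by rule were the member with the highest CK mean in each pattern, the largest called difference in each test and the genes nearest the limit of 1 FPKM; other members were described after their values were seen. Lists by product wording were not run. Counts of fragments cover counting error only, and reads shared between near-identical or overlapping genes could not be checked.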

Additional observations from a re-analysis of the deposited data

Results flagged for a closer look

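A07821 differed in opposite directions between cultures with and without sinapic acid, depending on the dye. With the dye, the difference P2R+SA minus P2R was 1.31 FPKM, with every P2R+SA library above every P2R library. Without the dye, the difference SA minus CK was -0.84 FPKM, with every SA library below every CK library. The rule required low P2R and high CK values, which favours both of these directions, so they are a description. The difference between them was not tested, and sinapic acid goes with the header number (48 against 36) in both.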

How the results depend on the processing

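The number of genes that met the rule depended on its limits: 20 as defined, 2 with 0.5 FPKM as the limit for off, 41 with at least 1.5 FPKM in CK, 9 with at least 3 FPKM in CK and 70 with group means in place of every library. It was 49 without SA replicate 1 and P2R+SA replicate 1 together, and 20 to 49 with 1 library left out. It was 19 with quantile normalization, 21 with median-of-ratios scaling and 23 with no limit on the mean. These sets held 15, 18 and 20 of the 20 genes, so rescaling changed some members. Of the 20 genes, those that kept their pattern numbered 2 with the limit of 0.5 FPKM, 9 with at least 3 FPKM in CK, 13 with quantile normalization, 13 with group means and 13 to 20 with 1 library left out. The cause was not tested, other than that fewer libraries or looser limits admit more genes.

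Of the SA-off genes in P2R+SA vs P2R, 3 were called, and 2 to 4 in the 23 alternatives. Of the P2R-off genes in P2R+SA vs SA, 0 were called in the main fit and in every alternative. Of the P2R+SA-off genes in P2R vs SA, 4 were called, and 3 to 5 in the 23 alternatives. An equal count did not always hold the same genes. With quantile normalization, and also without P2R replicate 2, A02964 was called in P2R vs SA and A00603 was not. No called gene changed direction. Of 18 pairs of libraries with the same replicate number, 3 had deviations that correlated at over 0.1 (range -0.322 to 0.542), so the numbers were not taken to pair libraries. With the replicate number as a block, the counts of called genes were 3, 0 and 4. Precision is limited by fragments: the 20 genes had as few as 1 fragment in a library of an off group.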
